A study of Mus musculus with 12 samples.

Results

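The interleukin-1 (IL-1), interleukin-18 (IL-18) and interleukin-33 (IL-33) receptor genes were described in mouse lungs from a mammary tumour model. The set held 8 genes, Il33, Il1rl1, Il1rap, Il1r1, Il1r2, Il18r1, Il18rap and Il18bp, picked by gene name from the 56748 genes of the deposited count table. All 8 had enough reads to be tested. RNA was sequenced from whole lung in 12 libraries, 4 from each of 3 genotypes. All mice carried MMTV-PyMT, a transgene that puts the polyoma middle T oncogene under the mouse mammary tumour virus promoter, and all were 4.5 months old, with the treatment labelled as lung metastasis. The S1pr1 knockout (S1pr1 KO) was MMTV-Cre;S1pr1fl/fl; MMTV-PyMT, the C3 knockout (C3 KO) was MMTV-Cre;C3Tdt:MMTV-PyMT, and the wild type (WT) was MMTV-Cre; MMTV-PyMT in the series' design, while the strain label of its samples named MMTV-PyMT alone. The same MMTV promoter drives Cre, and it is known to act chiefly in mammary epithelium. Which cells of these lungs were recombined was not tested. Nothing in the labels says that the 4 libraries of a genotype came from separate animals, so each p-value measures the spread between these samples.

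IL-33 and the forms of IL-1 are alarm cytokines, released or processed when barrier tissue is stressed. Each binds a specific receptor chain (ST2, the product of Il1rl1, for IL-33 and IL1R1 for IL-1), after which the shared accessory chain IL1RAP joins and signalling runs through MyD88 and IRAK kinases to NF-kB. IL-18 works in the same way through its own pair of chains, IL18R1 and IL18RAP. The system is held in check by IL1R2, a decoy that binds IL-1 without signalling, and by IL-18 binding protein, the secreted product of Il18bp.

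Levels per library are given in CPM, read counts scaled to a common library total by edgeR's TMM method. A fold change is the log2 value fitted by edgeR with its standard error (SE), positive where the first-named genotype was higher. A gene was called where its edgeR adjusted p, by the quasi-likelihood test with Benjamini-Hochberg adjustment over 20229 genes, was under 0.05. Total counts ran from 32274797 to 53063470 per library. The targeted genes did not separate the libraries cleanly. S1pr1 stood at 132, 366, 142 and 154 CPM in S1pr1 KO libraries 1 to 4, against 295, 491, 319 and 330 CPM in WT libraries 1 to 4. C3 stood at 475, 465, 601 and 1416 CPM in C3 KO libraries 1 to 4, against 1025, 787, 903 and 799 CPM in WT libraries 1 to 4. The libraries labelled S1pr1 KO 2 and C3 KO 4 therefore lacked the low targeted transcript seen in the other 3 libraries of their groups. Neither targeted gene was called in its own knockout, with edgeR adjusted p = 0.153 for S1pr1 and 0.813 for C3. In WT lungs the summed level of 8 alveolar type 2 markers was 19212 to 23356 CPM and that of 6 endothelial markers 3659 to 4217 CPM.

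In S1pr1 KO lungs the decoy receptor gene Il1r2 and the IL-18 receptor gene Il18r1 lay below WT in every library, and the other 6 genes overlapped WT. Of all genes tested, 5.18% were lower without overlap in this comparison and 11.3% did not overlap in either direction. Il1r2 averaged 1.28 ± 0.119 CPM in S1pr1 KO lungs and 3.94 ± 2.01 CPM in WT lungs (SD, n = 4 each), and Il18r1 averaged 63.1 ± 4.93 CPM in S1pr1 KO lungs and 89.2 ± 9.74 CPM in WT lungs (SD, n = 4 each). Neither passed the threshold, with edgeR adjusted p = 0.0574 for Il18r1 and 0.145 for Il1r2, so 0 of 8 were called where 1.35% of all genes were. DESeq2 called both, with adjusted p = 0.00434 for Il18r1 and 0.0272 for Il1r2, and it called 1224 of 35987 genes with a p-value. The library C3 KO 3 is in neither group of S1pr1 KO against WT. It enters that fit through the shared estimate of spread, the count filter and the scaling. Leaving C3 KO 3 out brought both under the threshold in edgeR, in a fit that called 300 of 20628 genes. The 8 edgeR fits that left out 1 S1pr1 KO or WT library each called 0 of the 8 genes. In those fits the edgeR adjusted p was 0.0667 to 0.156 for Il18r1 and 0.152 to 0.312 for Il1r2. In C3 KO against WT 0 of the 8 genes were called, where 0.00989% of all genes were, and every gene's libraries overlapped WT, where 6.09% of all genes did not overlap. Likewise, in S1pr1 KO against C3 KO 0 of 8 were called, where 0% of all genes were, and all 8 overlapped, where 6.40% of all genes did not.

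**Figure D1:**
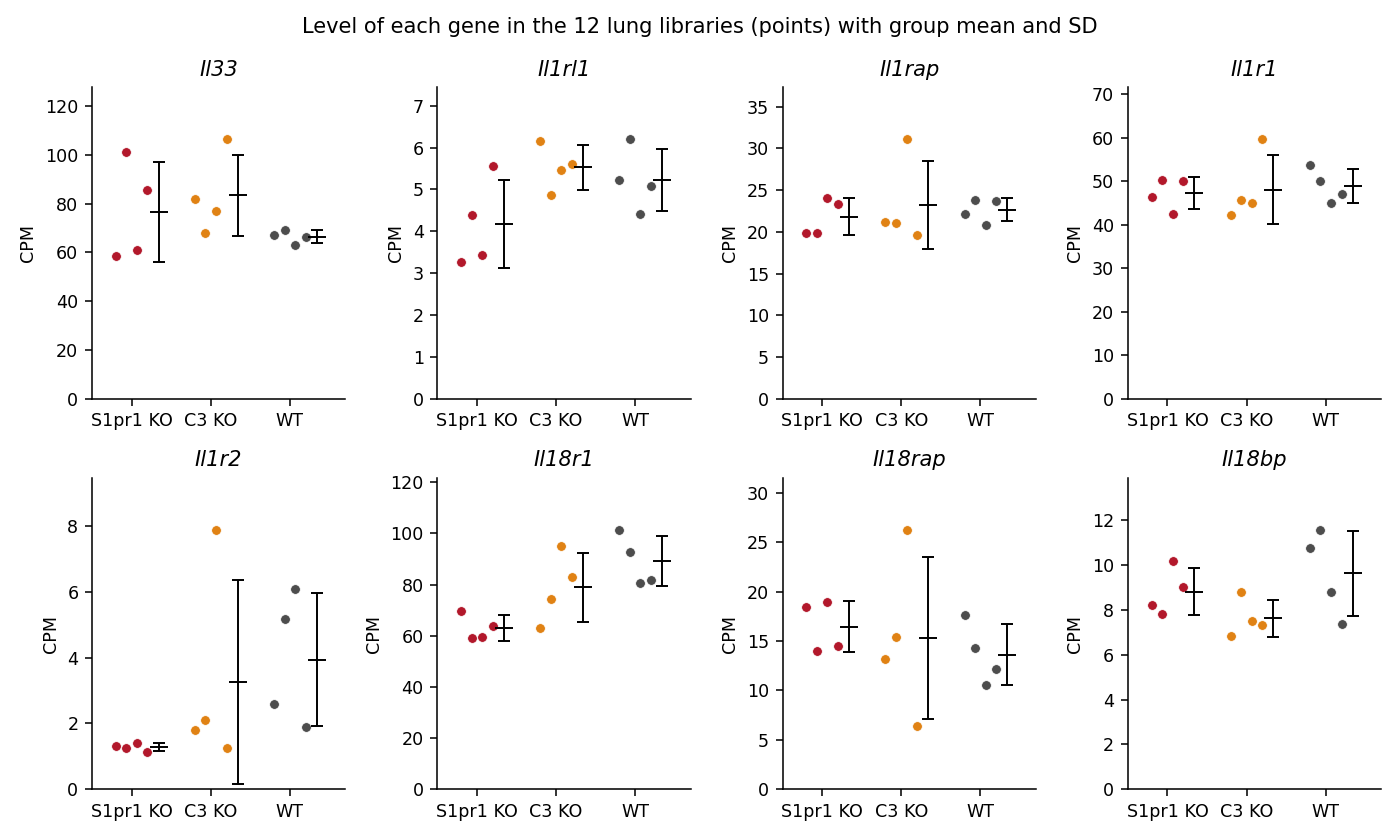
Level in CPM (y axis, from 0) of each of the 8 genes in every library, with S1pr1 KO, C3 KO and WT side by side. Points are libraries, and bars give the group mean and SD (n = 4). Il1r2 and Il18r1 are the 2 genes whose S1pr1 KO points all lie below all WT points.

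Set against their length, the 8 genes spanned a wide range. Mean FPKM (fragments scaled to gene length and library size, as the authors deposited them) over the 12 libraries was 26.0 for Il33, 15.9 for Il18r1 and 7.54 for Il1r1, and these 3 kept that order in all 12 libraries. Below them stood Il18bp at 2.86, Il18rap at 2.23, Il1rap at 1.98, Il1r2 at 1.48 and Il1rl1 at 0.72 mean FPKM. Neighbours among these lower genes traded places. Il18bp was above Il18rap in 10 of 12 libraries, Il18rap above Il1rap in 9, Il1rap above Il1r2 in 9 and Il1r2 above Il1rl1 in 10. The IL-33 transcript was thus the most abundant of the 8 per length and its receptor transcript the least, and Il18r1 was above its partner chain Il18rap. Il18, the ligand of that receptor, had a mean of 11.3 FPKM, nearer to Il18r1. Whole lung holds many cell types, so fewer cells of a type and less RNA per cell cannot be told apart in any of these values.

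Il33 (chromosome 19:29902514-29938118, plus strand, GRCm39) encodes the ligand, a nuclear cytokine kept in alveolar type 2 cells of the mouse lung, among others. Il33 stood at 58.7, 101, 61.1 and 85.4 CPM in S1pr1 KO libraries 1 to 4, at 81.9, 68.1, 76.8 and 106 CPM in C3 KO libraries 1 to 4, and at 67.1, 69.2, 62.8 and 66.4 CPM in WT libraries 1 to 4. WT lungs were tight. S1pr1 KO libraries lay on both sides of the WT range, and C3 KO libraries lay within it or above it. The coefficient of variation was 26.6% in S1pr1 KO, 19.7% in C3 KO and 3.99% in WT. The highest library of each knockout was the doubted one, S1pr1 KO 2 and C3 KO 4. Those libraries also had the highest sums of the 8 alveolar type 2 markers in their groups. The sums were 21717, 23725, 18257 and 21965 CPM in S1pr1 KO libraries 1 to 4. In C3 KO libraries 1 to 4 they were 21360, 20351, 21841 and 26573 CPM. In WT, where Il33 varied little, they ran from 19212 to 23356 CPM. The part of these cells in the Il33 values was not tested. The log2 fold change was 0.21 ± 0.17 (SE) for S1pr1 KO against WT with edgeR adjusted p = 0.576, and 0.33 ± 0.17 (SE) for C3 KO against WT with edgeR adjusted p = 0.509. Without both doubted libraries these log2 values were 0.042 and 0.19.

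The stretch before the Il33 start site is shown because it holds the only match to the TATA box letters among the 8 windows searched. Promoter letters were read from the RefSeq table of GRCm38.p6, another build than that of the counts, and all 8 genes matched by symbol. The 250 bases upstream of 1 start per gene were searched on both strands. RefSeq lists 2 starts for Il33, Il1rl1 and Il1r1 and 3 for Il18r1, and windows of the other starts are not covered here. The motifs were a TATA box (TATAAA, in 12.4% of 32817 windows), an AP-1 motif (TGANTCA, 6.75%) and a STAT motif (TTCNNNGAA, 7.01%). Also searched were an NF-kB motif (GGGANTTTC, 0.942%) and an E-box (CACGTG, 6.02%). The E-box was added after the Il1r2 sequence had been seen. A match is a description of the letters and does not show that a factor binds there. Capitals mark the TATAAA match in the Il33 window, chr19:29924863-29925112 (plus strand, 5′ to 3′). It lies near the far end of the 250 bases, away from the start site, and is not shown to be a core promoter element.
Il33: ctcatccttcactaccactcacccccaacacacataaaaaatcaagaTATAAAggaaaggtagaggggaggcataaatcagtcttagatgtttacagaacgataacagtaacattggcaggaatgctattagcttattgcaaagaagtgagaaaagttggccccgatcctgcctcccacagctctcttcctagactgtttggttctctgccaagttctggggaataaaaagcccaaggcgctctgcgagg

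Il1rl1 (chromosome 1:40468730-40504575, plus strand, GRCm39) encodes ST2, the IL-33 receptor of type 2 innate lymphoid cells, mast cells and some regulatory T cells. It is made both as a membrane receptor and as a soluble form that traps IL-33. The GENCODE M21 annotation lists 5 protein coding transcripts for it, and a count per gene cannot separate them. Il1rl1 stood at 3.28, 4.40, 3.43 and 5.55 CPM in S1pr1 KO libraries 1 to 4, at 6.16, 4.86, 5.47 and 5.60 CPM in C3 KO libraries 1 to 4, and at 5.22, 6.20, 4.42 and 5.07 CPM in WT libraries 1 to 4. S1pr1 KO libraries 1, 2 and 3 lay below every WT library while S1pr1 KO 4 was among the WT values, so the groups overlapped. The log2 fold change was -0.33 ± 0.18 (SE) for S1pr1 KO against WT with edgeR adjusted p = 0.343. C3 KO against WT gave 0.079 ± 0.17 (SE) with edgeR adjusted p = 0.913. S1pr1 KO against C3 KO gave -0.41 ± 0.18 (SE) with edgeR adjusted p = 0.382. In S1pr1 KO against WT, no marker of these cell types was called. Of type 2 innate lymphoid cell markers, 4 lay above 0 and 5 below. They summed to 131 to 158 CPM in S1pr1 KO and 156 to 169 CPM in WT. Mast cell and basophil markers had 5 above and 1 below, and regulatory T cell markers 3 and 3. The part of these cells in the Il1rl1 values was not tested.

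Set against the ligand within each library, the receptor lay lower in every S1pr1 KO library than in any WT library. The log2 ratio of Il1rl1 to Il33 counts was -4.16, -4.52, -4.16 and -3.94 in S1pr1 KO libraries 1 to 4, -3.73, -3.81, -3.81 and -4.25 in C3 KO libraries 1 to 4, and -3.68, -3.48, -3.83 and -3.71 in WT libraries 1 to 4. S1pr1 KO and WT did not overlap, while C3 KO overlapped WT. The S1pr1 KO mean was -4.20 ± 0.24 and the WT mean -3.68 ± 0.14 (SD, n = 4 each), a difference of -0.52. A two-sided exact permutation test gave p = 0.0286, and with 4 libraries on each side no smaller value is possible. After Benjamini-Hochberg adjustment over 9 ratio tests the exact permutation p was 0.129. Over these 9 tests an adjusted value under 0.05 was possible only if most of them reached the smallest p. Without S1pr1 KO 2 the difference was -0.41, and 3 libraries against 4 can give no exact p below 0.0571.

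Il1rap (chromosome 16:26400454-26548867, plus strand, GRCm39) encodes the accessory chain that IL-1 and IL-33 receptors share. Il1rap stood at 19.9, 19.8, 24.1 and 23.3 CPM in S1pr1 KO libraries 1 to 4, at 21.2, 21.1, 31.1 and 19.7 CPM in C3 KO libraries 1 to 4, and at 22.2, 23.8, 20.9 and 23.6 CPM in WT libraries 1 to 4. Of the 12 libraries, 11 lay close together and C3 KO 3 stood above them. Fitted log2 fold changes were -0.056 ± 0.13 (SE) for S1pr1 KO against WT and 0.040 ± 0.13 (SE) for C3 KO against WT, with edgeR adjusted p = 0.873 and 0.947. The 95% interval for S1pr1 KO against WT ran from -0.34 to 0.23. An antisense gene, Gm20319, overlaps Il1rap and held 0.110 to 0.468 CPM.

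Il1r1 (chromosome 1:40264240-40356417, plus strand, GRCm39) encodes the signalling receptor for both forms of IL-1. Il1r1 stood at 46.5, 50.3, 42.5 and 50.0 CPM in S1pr1 KO libraries 1 to 4, at 42.2, 45.6, 44.9 and 59.7 CPM in C3 KO libraries 1 to 4, and at 53.8, 50.2, 44.9 and 47.0 CPM in WT libraries 1 to 4. The groups overlapped throughout, and the doubted libraries S1pr1 KO 2 and C3 KO 4 were again the highest of their groups. edgeR gave a log2 fold change of -0.050 ± 0.10 (SE) for S1pr1 KO against WT, with a 95% interval of -0.28 to 0.18 and edgeR adjusted p = 0.853. C3 KO against WT gave -0.026 ± 0.10 (SE) with edgeR adjusted p = 0.958. These intervals were the narrowest of the 8 genes in both comparisons.

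Il1r2 (chromosome 1:40113239-40164391, plus strand, GRCm39) encodes the IL-1 decoy receptor, which neutrophils are known to carry in quantity. Il1r2 stood at 1.33, 1.24, 1.41 and 1.13 CPM in S1pr1 KO libraries 1 to 4, at 1.79, 2.11, 7.89 and 1.25 CPM in C3 KO libraries 1 to 4, and at 2.60, 5.18, 6.09 and 1.89 CPM in WT libraries 1 to 4. The highest S1pr1 KO library was below the lowest WT library. C3 KO held both a library as low as S1pr1 KO and the highest of all 12. The values rest on few reads, between 38 and 70 per library in S1pr1 KO, 49 and 284 in C3 KO, and 69 and 208 in WT. The coefficient of variation was 9.36% in S1pr1 KO, 95.2% in C3 KO and 51.1% in WT.

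The log2 fold change of Il1r2 was -1.62 ± 0.54 (SE) for S1pr1 KO against WT, with a 95% interval of -2.80 to -0.44 and edgeR adjusted p = 0.145. C3 KO against WT gave -0.27 ± 0.52 (SE) with edgeR adjusted p = 0.898, and -1.19 with edgeR adjusted p = 0.439 when C3 KO 3 was left out. S1pr1 KO against C3 KO gave -1.35 ± 0.54 (SE) with edgeR adjusted p = 0.354. Set against Il1r1 within each library, the decoy was also lower in S1pr1 KO. The log2 ratio of Il1r2 to Il1r1 counts averaged -5.22 ± 0.24 in S1pr1 KO and -3.79 ± 0.84 in WT (SD, n = 4 each), with no overlap and a two-sided exact permutation p = 0.0286, or 0.129 after Benjamini-Hochberg adjustment over 9 tests. As a plain ratio of reads, Il1r2 had 0.0226 to 0.0331 of the Il1r1 count in S1pr1 KO libraries, 0.0210 to 0.176 in C3 KO libraries and 0.0403 to 0.136 in WT libraries.

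Neutrophil markers varied in the same libraries. The summed level of 8 neutrophil markers, S100a8, S100a9, Csf3r, Cxcr2, Mmp8, Mmp9, Retnlg and Ly6g, was 301, 92.9, 458 and 253 CPM in S1pr1 KO libraries 1 to 4, 258, 377, 1405 and 41.0 CPM in C3 KO libraries 1 to 4, and 496, 404, 323 and 329 CPM in WT libraries 1 to 4. The library C3 KO 3 was highest for these markers and for Il1r2, and C3 KO 4 was lowest of its group for both, whereas in S1pr1 KO the marker sum ranged widely and Il1r2 did not. In WT the 2 went apart, as WT 3 had the lowest marker sum of its group and the highest Il1r2. None of the 8 markers was at 0 counts, and none was called. All 8 had a log2 fold change below 0 for S1pr1 KO against WT, with a median of -0.45, and all 8 were above 0 for C3 KO against WT, with a median of 0.60. The group median of the marker sum was nevertheless lower in C3 KO (318 CPM) than in WT (367 CPM), with C3 KO 3 far above the rest. The library C3 KO 3 also had the highest summed level of 4 erythroid (red cell) markers, 23226 CPM. The next highest of the 12 libraries was C3 KO 1 with 4136 CPM. The part of neutrophils or red cells in the Il1r2 result, or in the other values of C3 KO 3, was not tested.

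The Il1r2 sequence is shown because this gene had the largest log2 fold change of the 8, in size, in S1pr1 KO against WT. It is the part of its upstream window outside annotated exons, chr1:40085852-40085984 (plus strand, 5′ to 3′, GRCm38.p6, RefSeq), ending 108 bases before the RefSeq start site. By the build shift that Il1r1, Il1rl1, Il18r1 and Il18rap share, this start lies inside the counted gene, not at its first base. The stretch then also lies directly upstream of the opposite-strand gene Gm16894. Whether it acts as a promoter of either gene was not tested. Capitals mark 2 copies of the E-box.
Il1r2: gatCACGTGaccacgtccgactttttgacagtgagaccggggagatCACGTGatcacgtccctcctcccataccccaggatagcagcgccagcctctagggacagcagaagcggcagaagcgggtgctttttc

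The whole upstream window of Il1r2 also held 1 STAT match, TTCAAGGAA. It begins in the last bases of the stretch printed and runs on past its end towards the start. Il1rl1, Il1rap, Il1r1, Il18r1, Il18rap and Il18bp held no match to any of the 5 motifs in these windows.

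**Figure D2:**
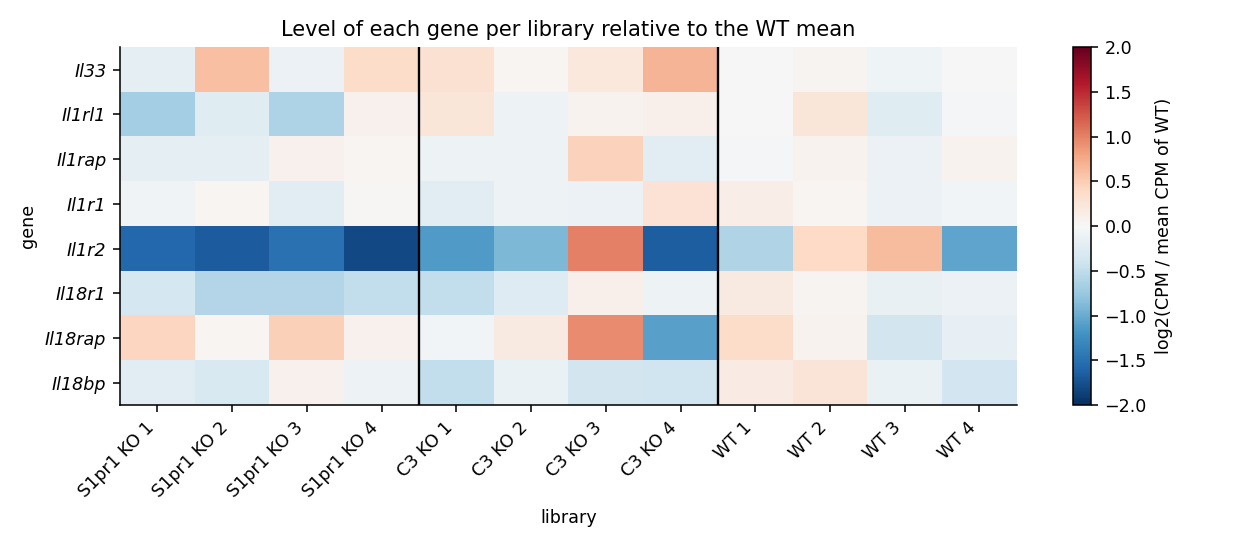
Level of each gene (rows) in each library (columns) as log2 of its CPM over the WT mean CPM, on a colour scale from -2 to 2 with red above and blue below. Il1r2 is low in all 4 S1pr1 KO libraries and in C3 KO 4, and the library C3 KO 3 is the reddest for Il1rap, Il1r2 and Il18rap.

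Il18r1 (chromosome 1:40504712-40540014, plus strand, GRCm39) encodes the IL-18 binding chain, carried by natural killer cells, T cells and, in lung, other cells too. Il18r1 stood at 69.8, 59.1, 59.7 and 63.7 CPM in S1pr1 KO libraries 1 to 4, at 63.2, 74.4, 95.3 and 83.0 CPM in C3 KO libraries 1 to 4, and at 101, 92.6, 80.8 and 82.0 CPM in WT libraries 1 to 4. All S1pr1 KO libraries lay under all WT libraries, and C3 KO spread over both ranges. Unlike the targeted gene, Il18r1 was not high in the library labelled S1pr1 KO 2, which was the lowest of the 12. The log2 fold change for S1pr1 KO against WT was -0.50 ± 0.12 (SE), with a 95% interval of -0.75 to -0.25 and edgeR adjusted p = 0.0574. Its value ranged from -0.55 to -0.43 over 22 other settings, with adjusted p between 0.00434 and 0.156, under 0.05 in 7 of them. C3 KO against WT gave -0.18 ± 0.12 (SE) with edgeR adjusted p = 0.616, and S1pr1 KO against C3 KO gave -0.32 ± 0.12 (SE) with edgeR adjusted p = 0.313.

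Il18rap (chromosome 1:40554522-40590865, plus strand, GRCm39) encodes the second IL-18 chain, without which the receptor does not signal. Il18rap stood at 18.4, 14.0, 19.0 and 14.5 CPM in S1pr1 KO libraries 1 to 4, at 13.2, 15.4, 26.3 and 6.45 CPM in C3 KO libraries 1 to 4, and at 17.6, 14.3, 10.5 and 12.1 CPM in WT libraries 1 to 4. The groups overlapped, and C3 KO held both the highest and the lowest library. Fitted log2 fold changes were 0.27 ± 0.32 (SE) for S1pr1 KO against WT and 0.17 ± 0.32 (SE) for C3 KO against WT, with edgeR adjusted p = 0.712 and 0.898. The paired chains thus had fold changes of opposite sign in S1pr1 KO lungs, of which neither passed the threshold. Their difference was not tested.

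Markers of the lymphocytes that carry the IL-18 receptor went 2 ways in S1pr1 KO lungs. The summed level of 8 natural killer cell markers was 104, 95.4, 82.0 and 97.2 CPM in S1pr1 KO libraries 1 to 4, against 68.3, 47.2, 28.3 and 52.6 CPM in WT libraries 1 to 4, with no overlap. All 8 had a log2 fold change above 0 with a median of 1.02, and none was called. The summed level of 8 T cell markers was 24.9, 21.6, 36.3 and 17.7 CPM in S1pr1 KO libraries 1 to 4, against 56.0, 47.7, 34.8 and 53.8 CPM in WT libraries 1 to 4, and S1pr1 KO 3 lay above the lowest WT library. All 8 were below 0 with a median of -0.98, and Cd4, the helper T cell co-receptor, and Cd6, a T cell adhesion receptor, were called, with edgeR adjusted p = 0.0276 and 0.0389. Of 8 fits that left out 1 S1pr1 KO or WT library, 7 lost the call of Cd4 (all but that without WT 3) and 7 that of Cd6 (all but that without S1pr1 KO 3), with adjusted p up to 0.0965 and 0.109. Without both doubted libraries Cd6 had adjusted p = 0.0552, and on FPKM 0.0660 and 0.0576 (pseudocounts 1 and 0.1). None of these markers was at 0 counts, and the part of either cell type in the Il18r1 and Il18rap values was not tested. Endothelial markers summed to 3345 to 3724 CPM in S1pr1 KO libraries and 3659 to 4217 CPM in WT libraries.

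Markers of other cell types also differed between these libraries. Cardiomyocyte markers, which in mouse lung can come from the muscle of pulmonary veins, summed to 460 to 2136 CPM in S1pr1 KO and 73.9 to 354 CPM in WT, with 5 of 5 log2 fold changes above 0 and a median of 1.86. Of these, Ryr2, a calcium release channel, and Myoz2, a sarcomere protein, were called, with edgeR adjusted p = 0.0436 and 0.0464. Ciliated cell markers summed to 782 to 954 CPM in S1pr1 KO and 567 to 696 CPM in WT, with 6 of 6 above 0 and a median of 0.72. Of these, Ccdc153 and Cfap43, genes of motile cilia, were called, with edgeR adjusted p = 0.0295 and 0.0488. Over 22 other settings the call was lost in 12 for Ryr2, 14 for Myoz2, 6 for Ccdc153 and 13 for Cfap43, with adjusted p up to 0.108, 0.115, 0.0965 and 0.155. Among them were 8 fits that left out 1 S1pr1 KO or WT library, of which 7, 8, 6 and 8 lost the call, in that order. All 5 B cell markers lay below 0, with a median of -1.31 and sums of 31.9 to 102 CPM in S1pr1 KO and 68.9 to 165 CPM in WT, and all 6 macrophage markers lay below 0, with a median of -0.36 and sums of 494 to 620 CPM in S1pr1 KO and 664 to 894 CPM in WT. None of the B cell or macrophage markers was called, and the part of these cell types in the values of the 8 genes was not tested.

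Il18r1 and Il18rap lie beside each other and beside Il1rl1, so the stretches before their starts are shown together (plus strand, 5′ to 3′, GRCm38.p6, RefSeq). Il18r1 begins 136 bases after the end of Il1rl1, and the sequence printed, chr1:40465416-40465551, is that whole gap. The 250 bases before Il18rap are chr1:40515112-40515361. Neither has a match in capitals.
Il18r1: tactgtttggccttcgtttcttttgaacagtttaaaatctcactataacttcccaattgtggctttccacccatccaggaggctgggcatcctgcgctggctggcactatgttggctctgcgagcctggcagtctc
Il18rap: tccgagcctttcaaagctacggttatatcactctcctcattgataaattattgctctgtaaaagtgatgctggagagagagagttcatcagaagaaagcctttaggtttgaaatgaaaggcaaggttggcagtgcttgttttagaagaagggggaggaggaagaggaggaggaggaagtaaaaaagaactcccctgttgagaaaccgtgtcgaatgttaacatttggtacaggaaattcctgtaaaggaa

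Il18bp (chromosome 7:101664092-101667897, minus strand, GRCm39) encodes the soluble inhibitor that binds IL-18. Il18bp stood at 8.24, 7.80, 10.2 and 9.02 CPM in S1pr1 KO libraries 1 to 4, at 6.85, 8.81, 7.50 and 7.34 CPM in C3 KO libraries 1 to 4, and at 10.8, 11.6, 8.81 and 7.38 CPM in WT libraries 1 to 4. The 3 groups overlapped. edgeR gave a log2 fold change of -0.13 ± 0.15 (SE) for S1pr1 KO against WT with edgeR adjusted p = 0.702, and -0.34 ± 0.15 (SE) for C3 KO against WT with edgeR adjusted p = 0.434. Il18bp overlaps the opposite-strand gene Numa1 by 80 bases, and Numa1 held 265 to 314 CPM. Whether reads were counted by strand is not given in the sources used here. The Il18bp counts are therefore uncertain.

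The transcript of the cytokine that Il18bp binds lay below WT in every S1pr1 KO library. Il18 stood at 10.2, 9.51, 8.95 and 7.51 CPM in S1pr1 KO libraries 1 to 4, at 12.8, 9.89, 10.4 and 18.2 CPM in C3 KO libraries 1 to 4, and at 15.8, 14.3, 10.9 and 12.1 CPM in WT libraries 1 to 4. Its log2 fold change was -0.55 ± 0.19 (SE) for S1pr1 KO against WT with edgeR adjusted p = 0.151. The log2 ratio of Il18bp to Il18 counts averaged -0.037 ± 0.30 in S1pr1 KO, -0.71 ± 0.50 in C3 KO and -0.47 ± 0.20 in WT (SD, n = 4 each). Those of S1pr1 KO and WT overlapped, with a two-sided exact permutation p = 0.0857, or 0.171 after Benjamini-Hochberg adjustment over 9 tests.

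Without a call among the 8 genes, their standing was read against all tested genes. In S1pr1 KO against WT edgeR called 274 genes, with 3651 at an unadjusted p under 0.05. In C3 KO against WT it called 2, with 2217 at an unadjusted p under 0.05, while DESeq2 called 155. In S1pr1 KO against C3 KO it called 0, with 2437 at an unadjusted p under 0.05, while DESeq2 called 293 and voom 36. In S1pr1 KO against WT, DESeq2 called 2 of the 8 genes, beside 1224 of 35987 genes with a p-value. Voom called 1 of the 8, Il18r1, beside 928 of 20229 genes. Neither tool called any of the 8 in the other comparisons.

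The median log2 fold change of the 8 genes was -0.093 in S1pr1 KO against WT, with 2 above 0 and 6 below, beside a median of -0.0011 over all genes tested. It was 0.0069 in C3 KO against WT, with 4 above and 4 below, beside -0.00099 over all genes. Both comparisons use the same WT libraries, and S1pr1 KO against C3 KO shares each knockout with one of them, so the 3 are not independent. In S1pr1 KO against C3 KO the median was -0.11, with 2 above and 6 below, beside 0.0031 over all genes.

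**Figure D3:**
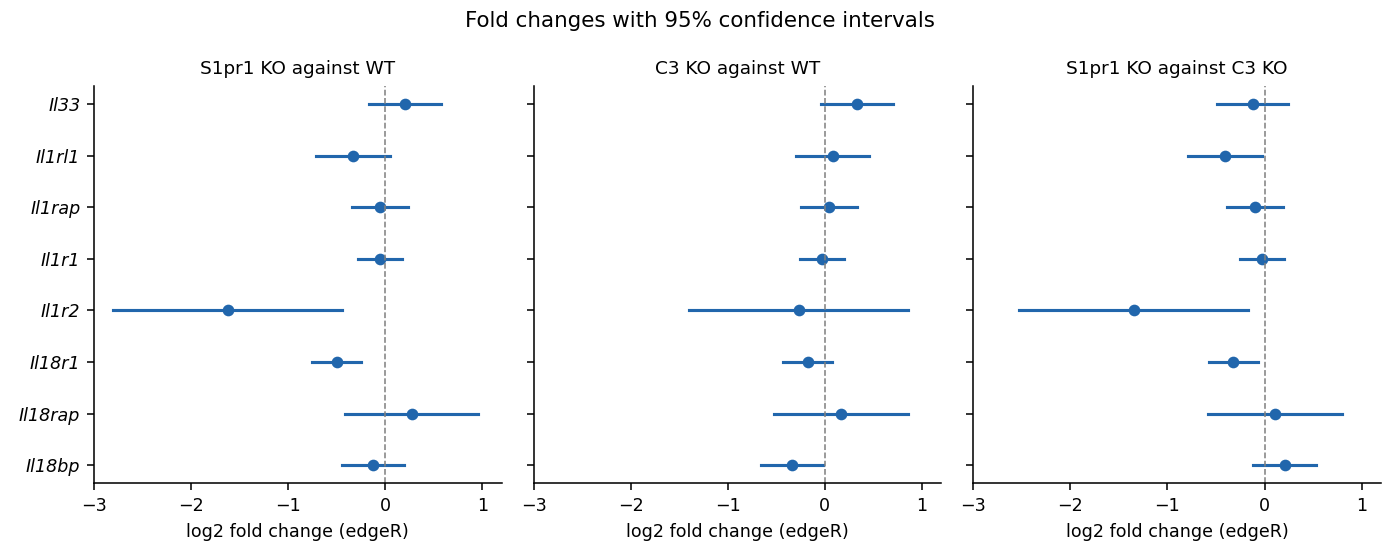
The log2 fold change from edgeR (x axis, points) with its 95% interval (lines) for the 8 genes, with a panel for each pair of genotypes. In S1pr1 KO against WT the intervals of Il1r2 and Il18r1 lie wholly below 0. So do those of Il1rl1, Il1r2 and Il18r1 in S1pr1 KO against C3 KO, and that of Il18bp in C3 KO against WT. None of the 8 genes passed the adjusted threshold in any panel.

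Il1r2, Il1r1, Il1rl1, Il18r1 and Il18rap lie on one strand within 477627 bases of chromosome 1, in that order, which let differences be read along the locus. Il1rl2, the receptor for the IL-36 cytokines, lies between Il1r1 and Il1rl1. Il1rl2 averaged 18.8 ± 2.68 CPM in S1pr1 KO, 16.7 ± 1.82 CPM in C3 KO and 16.2 ± 1.77 CPM in WT (SD, n = 4 each). Its log2 fold change was 0.22 ± 0.12 (SE) for S1pr1 KO against WT with edgeR adjusted p = 0.363. Log2 fold changes for S1pr1 KO against WT along the cluster thus ran -1.62, -0.050, 0.22, -0.33, -0.50 and 0.27, so the sign changed more than once along the locus. The fitted values of Il18r1 and Il18rap, 14507 bases apart, stood on opposite sides of 0, with an interval of -0.42 to 0.96 for Il18rap.

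Of 4 other annotated genes in the interval, Gm16894, Gm37347 and Gm38070 had 41, 57 and 18 reads over all 12 libraries and were not tested. Gm17970, a processed pseudogene, averaged 0.569 ± 0.186 CPM in S1pr1 KO, 0.593 ± 0.148 CPM in C3 KO and 0.418 ± 0.141 CPM in WT (SD, n = 4 each), with edgeR adjusted p = 0.519 for S1pr1 KO against WT.

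**Figure D4:**
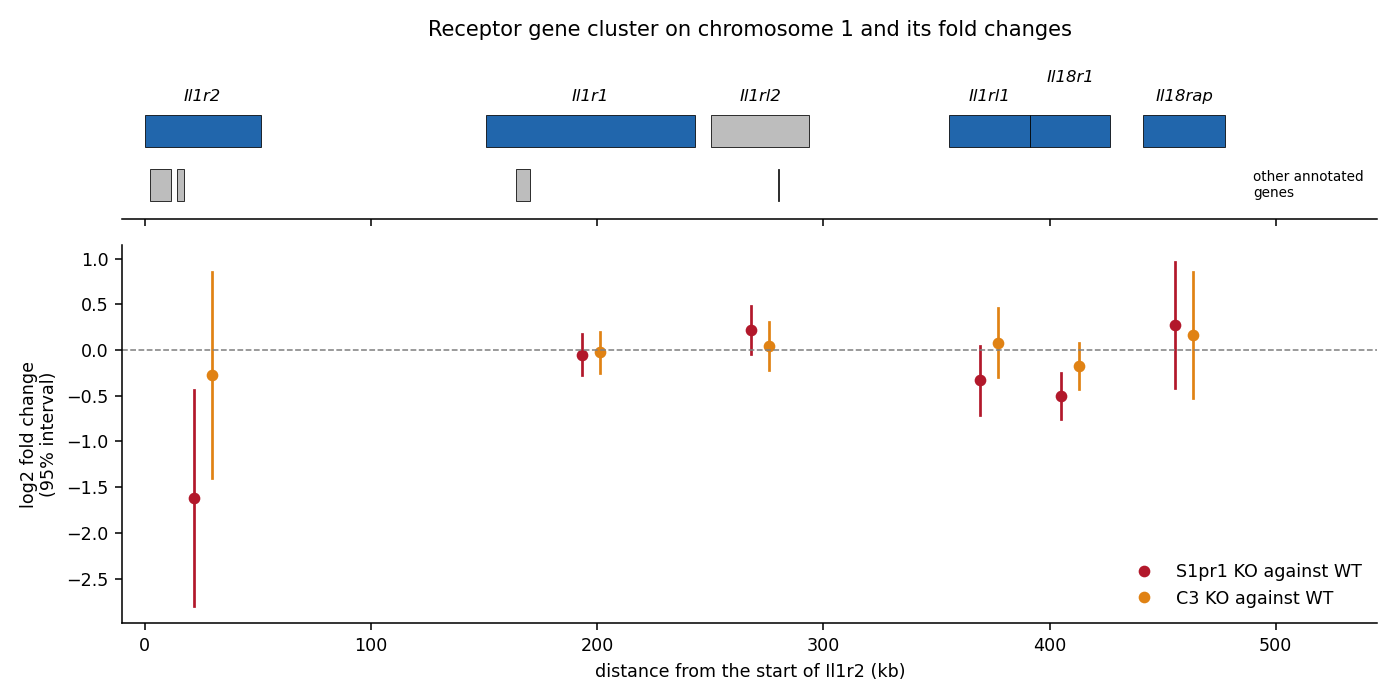
Upper part, the receptor genes (blue) and other annotated genes (grey) of the chromosome 1 cluster by distance in kb from the start of Il1r2. Lower part, the log2 fold change with its 95% interval at each gene's position for S1pr1 KO against WT and C3 KO against WT. The S1pr1 KO value is lowest at Il1r2 (-1.62). It is above 0 at Il1rl2 (0.22) and Il18rap (0.27), where both intervals include 0.

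Other genes of the pathway were read from lists and gave no called gene in any comparison. Of 9 further ligands and antagonists, 5 were tested, and all 5 had a log2 fold change below 0 in S1pr1 KO against WT, with a median of -0.55. Il1a, one form of IL-1, averaged 3.73 ± 0.888 CPM in S1pr1 KO and 5.44 ± 0.559 CPM in WT (SD, n = 4 each), with edgeR adjusted p = 0.151. Il1rn, the IL-1 receptor antagonist, averaged 7.46 ± 0.602 CPM in S1pr1 KO and 10.2 ± 3.04 CPM in WT (SD, n = 4 each), with edgeR adjusted p = 0.261. In C3 KO against WT the same list had 1 above 0 and 4 below.

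Signalling components downstream of the receptors lay on both sides of 0. Of 18, which included Myd88, the IRAK kinases and Traf6, 7 lay above and 11 below 0 in S1pr1 KO against WT, with a median of -0.044, and 9 and 9 in C3 KO against WT. Tab3, an adaptor of the TAK1 kinase, averaged 18.1 ± 0.786 CPM in S1pr1 KO, 18.2 ± 1.31 CPM in C3 KO and 15.0 ± 1.61 CPM in WT (SD, n = 4 each). Both knockouts lay above WT without overlap, with edgeR adjusted p = 0.147 for S1pr1 KO against WT and 0.331 for C3 KO against WT.

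Genes that respond to these cytokines likewise gave no call. Of 13 tested NF-kB and IL-1 responsive genes, 3 lay above and 10 below 0 in S1pr1 KO against WT, with a median of -0.16, and 9 above and 4 below in C3 KO against WT. Of 8 tested genes of the IL-33 and type 2 list, 5 lay above and 3 below 0 in both comparisons. Retnla, a macrophage gene of type 2 responses, averaged 71.6 ± 68.4 CPM in S1pr1 KO and 30.9 ± 9.75 CPM in WT (SD, n = 4 each), with edgeR adjusted p = 0.285. Chil3, a chitinase-like gene of alveolar macrophages, averaged 260 ± 46.4 CPM in S1pr1 KO and 424 ± 58.4 CPM in WT (SD, n = 4 each), with no overlap and edgeR adjusted p = 0.404. Of 7 tested type 1 genes that respond to IL-18, 6 lay above and 1 below 0 in S1pr1 KO against WT. Tbx21, the T-bet transcription factor of natural killer and type 1 T cells, averaged 5.02 ± 0.910 CPM in S1pr1 KO and 3.04 ± 0.861 CPM in WT (SD, n = 4 each), with no overlap and edgeR adjusted p = 0.193.

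The genes whose levels followed each member most closely over the 12 libraries differed from member to member. They were ranked by Pearson r of log2 CPM among 14245 protein coding genes, and the points share library depth and tissue composition, so r is descriptive. For Il33 they were Lrrk2 (r = 0.93), Gfpt1 (0.92) and Trappc8 (0.90), and for Il1rl1 they were Ganab (0.82), Exd2 (0.82) and Snx27 (0.80). For Il1rap they were Dennd4a (0.95), Alox5ap (0.91) and Mgam (0.91), and for Il1r1 they were Mob3b (0.89), Dram1 (0.88) and Plet1 (0.88). Il1r2 was followed by Ulk1 (0.93), Twnk (0.92) and Lrg1 (0.91). Il18r1 was followed by Rftn2 (0.93), Trpv2 (0.92) and Gla (0.92), and Il18rap by Itgam (0.95), Eid1 (0.92) and Txk (0.92). Il18bp was followed by Mmp16 (0.92), Naa40 (0.89) and Coq3 (0.88). No member was among the 3 genes closest to another member.

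The doubted library of each knockout took the same place among its group for several members, a pattern chosen after the values were seen. In both knockouts it was the highest for Il33 and Il1r1 and the lowest for Il18rap, for the Il1rl1 to Il33 ratio and for the summed neutrophil markers. Without both libraries 0 of the 8 genes were called in any comparison. The log2 fold change for S1pr1 KO against WT without them was -0.47 for Il18r1 and -1.61 for Il1r2, with edgeR adjusted p = 0.0921 and 0.161.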

How the data were processed

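Whole-lung RNA from 12 libraries was compared between S1pr1 KO, C3 KO and WT, 4 libraries each, grouped by genotype label. The authors deposited whole-number read counts per gene and, in a second table, FPKM values of the same libraries. The submitters' processing notes name CASAVA and STAR and the builds GRCm39 and mm39. Which tool counted reads, whether by strand, and on which annotation is not given in the sources used here. Columns of per-sample values left unused numbered 0.

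The deposited counts entered edgeR 4.0.16 under R 4.3.3 (filterByExpr, which kept 20229 genes, TMM scaling, quasi-likelihood fit with 3 group means over 12 libraries, 9 residual degrees of freedom), with Benjamini-Hochberg adjustment over all genes tested. SE is the absolute log2 value divided by the root of F. Log2 ratios of counts within a library were compared by two-sided exact permutation tests (scipy 1.17.1). FPKM served for levels between genes and for an alternative. DESeq2 1.42.0, voom in limma 3.58.1, other scalings and filters, FPKM on a log2 scale (pseudocounts 1 and 0.1), the groups compared alone and leaving out libraries were alternatives. The edgeR script was tested on simulated data.

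The members, lists and tests were chosen with earlier results of these data known. Named were the members, every listed gene called and up to 3 listed genes of lowest p per comparison, the genes of the chromosome 1 cluster, and the 3 protein coding genes with at least 1 mean CPM closest to each member. Some cell type markers were named after their values were seen.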

Additional observations from a re-analysis of the deposited data

Results flagged for a closer look

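Among 33 sets of 4 libraries (levels and ratios), 3 held a library far from the other 3 of its group, and chance alone marks about 1 in 20. All 3 were in C3 KO. Il1rap stood at 31.1 CPM in C3 KO 3, and Il1r2 at 7.89 CPM in the same library, both the highest of the group. The log2 ratio of Il1rl1 to Il33 was -4.25 in C3 KO 4, the lowest of the group.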

How the results depend on the processing

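No paired analysis was possible because replicate numbers were given in deposition order and mark no shared animal, litter or day. Of 528 alternative values for the 8 genes (22 settings, 3 comparisons), 501 kept direction and side of the threshold, 9 passed it newly and 18 changed sign. The 9 were Il18r1 in 7 settings and Il1r2 in 2, all S1pr1 KO against WT, where the number of the 8 genes called (0 by edgeR) was 2 by DESeq2, 1 by voom, 1 with no count filter, 1 with only the groups compared, and 0 to 2 with a library left out. It reached 1 without C3 KO 1 or 4 and 2 without C3 KO 3. Over all genes, S1pr1 KO against WT (274 called) gave 1224 by DESeq2, 928 by voom, 171 and 150 on FPKM (pseudocounts 1 and 0.1), 473 without both doubted libraries, and 2 to 571 with a library left out. C3 KO against WT (2 called) gave 155, 21, 6, 6 and 31 in that order, 1 with only the groups compared, and 1 to 32 with a library left out. S1pr1 KO against C3 KO (0 called) gave 293, 36, 7, 6 and 3, 15 with no count filter, and 0 to 13 with a library left out. The cause of the sign changes was not tested. For C3 KO against WT they were Il1rap at -0.0093 by voom and -0.13 to 0.12 with a library left out, Il1r1 at -0.14 to 0.038, Il1r2 at 0.0029 without both doubted libraries and -1.19 to 0.018 with a library left out, and Il18rap at -0.22 to 0.42. For S1pr1 KO against C3 KO they were Il1r1 at 0.030 by voom, 0.064 without both doubted libraries and -0.088 to 0.094, Il1rap at -0.17 to 0.069, Il33 at -0.29 to 0.014, and Il18rap at -0.082 without both and -0.15 to 0.49. Without C3 KO 3, Il1r2 was -1.19 for C3 KO against WT, against -0.27 with it. The ratio differences kept their direction under every setting run, and no ratio test passed in any. With 3 libraries against 4 no test could pass. With 4 against 4 the adjustment allowed it only if most of the ratio tests reached the smallest p. Il1r2 had at most 70 reads in an S1pr1 KO library. Intervals cover these samples only.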
